A study of Danio rerio with 36 samples.

Results

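The respiratory chain of the inner mitochondrial membrane is built from subunits encoded in 2 genomes, and the nuclear-encoded subunits, their named assembly factors and the inhibitors of the ATP synthase are described here in the adult AngioTag zebrafish. Members were all genes of the count table whose symbol, ignoring case, starts with ndufa, ndufb, ndufc, ndufs, ndufv, sdha, sdhb, sdhc, sdhd, uqcr, cox4, cox5, cox6, cox7, cox8 or atp5, which gave 108 of 32520 genes. By complex these were 38 complex I subunits, 4 genes of the NDUFA4 family, 8 complex I assembly factors, 5 complex II subunits, 4 complex II assembly factors, 8 complex III subunits, 21 complex IV subunits, 18 ATP synthase subunits and 2 ATP synthase inhibitors. Symbols are written as the reference name table gives them, which mixes human-style capitals with zebrafish names, and symbols carried by more than 1 gene are followed by the Ensembl identifier.

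All fish carried Tg(kdrl:egfp-2a-rpl10a3xHA)y530, in which the vascular kdrl promoter drives EGFP and an HA-tagged Rpl10a, a protein of the large ribosomal subunit. Translating ribosome affinity purification (TRAP) pulls tagged ribosomes and their bound mRNA out of a tissue lysate with an antibody to HA, and the pulldown is set against input RNA of the whole lysate. Pulldown and input were sequenced from adult muscle, skin and whole fish, with 3 replicates per group, and each replicate pooled tissue of 4 fish. Untreated animals of 1 transgenic line supplied every library, so all groups share the transgene. Neither sex nor exact age is given in the sources used here. Libraries of liver, heart and brain were not analysed here, because 18 columns of the table could not be tied to 1 of those organs by name.

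Complex I takes electrons from NADH and complex II takes them from succinate. Complex III passes them on to cytochrome c, complex IV hands them to oxygen, and the ATP synthase (complex V) uses the resulting proton gradient to make ATP. Muscle fibres are rich in these complexes, whereas endothelial cells are known to draw much of their ATP from glycolysis. Several subunits of complex IV and of the ATP synthase exist as paralogs, and in mammals some of these pairs divide into a form typical of heart and skeletal muscle and a form found in most other tissues.

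Total counts were 12254824 to 14731217 in muscle pulldowns and 18566761 to 26255588 in muscle inputs, 9202302 to 9635132 in skin pulldowns and 14916571 to 18791465 in skin inputs, and 15663575 to 23504935 in whole fish pulldowns and 14742611 to 18979105 in whole fish inputs. One gene without a symbol, ENSDARG00000080337, held 53.8% to 76.2% of the counts of whole fish pulldowns and 24.0% to 27.6% of whole fish inputs, so whole fish pulldowns had 5395543 to 7876345 counts on all other genes. The endothelial genes kdrl, a receptor for vascular endothelial growth factor, and cdh5, the adhesion protein VE-cadherin, were higher in the pulldown by log2 fold changes of 5.43 and 6.33 in muscle, 4.47 and 5.11 in skin, and 3.34 and 3.90 in whole fish. Skin replicate 2 was matched to its pair of columns by elimination, since their name does not spell out the tissue, so counts for skin are also given without it.

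Members took a smaller share of the pulldown than of the input in every tissue. Outside the most abundant gene, they held 1.84%, 2.37% and 2.04% of the counts of muscle pulldowns, against 4.40%, 5.67% and 6.12% of muscle inputs. In skin the shares were 1.66%, 1.35% and 1.3% in pulldowns and 2.95%, 2.36% and 2.44% in inputs. Whole fish pulldowns had 1.26%, 1.74% and 1.91%, against 4.21%, 4.78% and 4.87% in whole fish inputs. No pulldown share reached an input share of the same tissue, and the means were 2.09% ± 0.27 and 5.4% ± 0.89 in muscle, 1.44% ± 0.19 and 2.58% ± 0.32 in skin, and 1.64% ± 0.34 and 4.62% ± 0.36 in whole fish (pulldown and input, SD, n = 3 each). The inputs of muscle and whole fish stood above those of skin, while the pulldowns of the 3 tissues lay closer together. In bulk lysates, fewer cells of a type and less RNA per cell cannot be told apart.

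**Figure D1:**
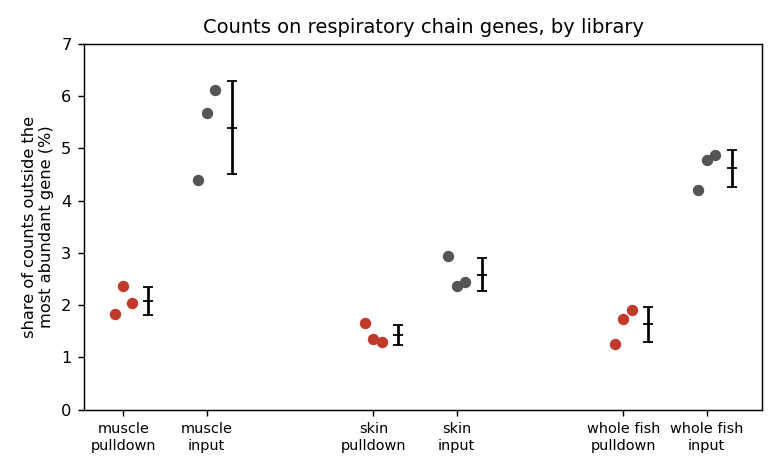
Share of counts outside the most abundant gene that fell on the 108 respiratory chain genes (vertical axis, percent), for each pulldown (red) and input (grey) library of muscle, skin and whole fish; bars show mean and SD of 3 libraries. The 3 muscle pulldowns sit between 1.84% and 2.37% and the 3 muscle inputs between 4.40% and 6.12%.

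Gene by gene, most members were depleted from the endothelial pulldown. A gene was called at a Benjamini-Hochberg adjusted p under 0.05 in edgeR's quasi-likelihood test and a log2 fold change, pulldown over input, of at least 1.2 in size. In each tissue 104 members had enough counts to be tested. In muscle 95 were depleted and 0 enriched, where 21% of all 14849 tested genes were depleted and 22.8% enriched. Without the fold minimum, 2 muscle members passed for enrichment, against 4397 of 14849 tested genes. At an unadjusted p under 0.05, 2 members passed for it, against 5222 of 14849. DESeq2 called 0 members enriched, against 3329 of 26237 genes. Scaled by library size alone, 41 were depleted and 7 enriched, against 485 and 9249 of 14849 tested genes, with the median of all genes at 1.79. The median log2 fold change over members was -2.76 ± 0.32 (SD of the medians of 3 same-numbered pairs), beside 0.07 over all tested genes.

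In skin 86 members were depleted and 1 was enriched, against 18.2% and 21.5% of 17153 tested genes, with a median of -1.53 ± 0.03 beside 0.04 over all genes. Without both libraries of skin replicate 2, 83 were depleted and 1 enriched, against 2963 and 3237 of 17363 tested genes. Scaled by library size alone, 12 were depleted and 1 enriched, against 783 and 7094 of 17153 tested genes, with the median of all genes at 0.87. Whole fish had 55 depleted and 0 enriched members, against 15.5% and 11.3% of 16923 tested genes, with a median of -1.78 ± 0.34 beside -0.09 over all genes. DESeq2 also called 0 enriched in whole fish and 68 depleted, against 2636 and 4929 of 26926 genes. At an unadjusted p under 0.05, 1 member was enriched and 80 were depleted there, against 3651 and 4385 of 16923 tested genes.

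The replicates were separated for at least as many members as were called. All 3 pulldowns lay below all 3 inputs for 96 of 104 members in muscle, 100 of 104 in skin and 83 of 104 in whole fish, where 29.2%, 32% and 31.8% of all tested genes did so. The reverse order, with every pulldown above every input, held for 2 members in muscle, 1 in skin and 1 in whole fish, against 33.4%, 33.8% and 18.6% of all tested genes. In both muscle and skin 82 members were depleted, and 50 were depleted in all 3 tissues. The same overlaps between tissues were not counted over all tested genes. Depletion was called in muscle but not in skin for 13 members, and in skin but not in muscle for 4, which were COX5B (ENSDARG00000015978), cox6a1 (ENSDARG00000022438), cox8a and SDHD (ENSDARG00000055712). Of these, SDHD (ENSDARG00000055712) was also below 0 in muscle, at -1.43, on few counts. The remaining 9 members were depleted in no tissue. Of these atp5if1a, COX4I2, cox6b1, COX7A2 (ENSDARG00000110700), NDUFAF4 and NDUFB4 were tested in at least 1 tissue, and NDUFS1, COX5B (ENSDARG00000113254) and ndufa4l2b were tested in none.

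**Figure D2:**
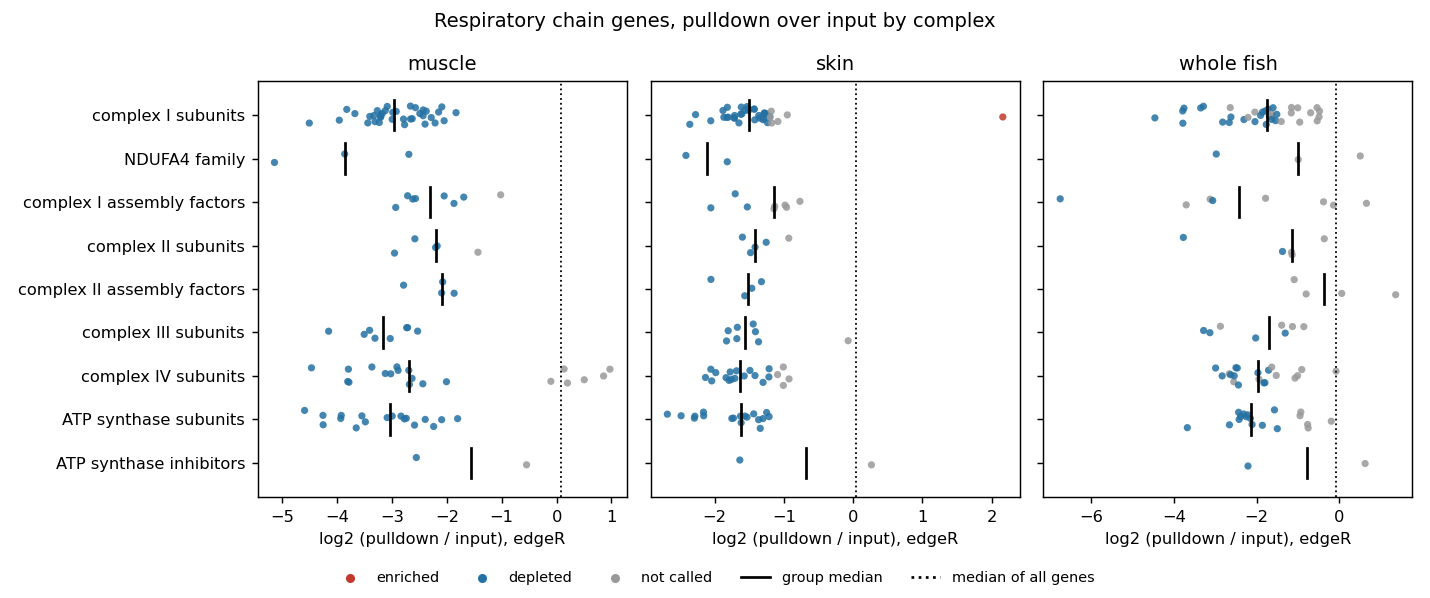
Log2 fold change of pulldown over input (horizontal axis) for every tested member in muscle, skin and whole fish, in rows by complex; blue points were depleted, red enriched and grey not called, black bars are group medians and the dotted line is the median of all tested genes. Subunits of complexes I, III and V lie left of the dotted line in muscle without exception, while 6 complex IV genes sit near or right of it.

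Complex I, the NADH dehydrogenase, gave the largest group. In muscle 36 of 36 tested subunits were depleted with a median of -2.96, in skin 31 of 37 with -1.51, and in whole fish 21 of 36 with -1.74. NDUFV1, the flavoprotein that binds NADH, had 48.1, 51.8 and 52.3 CPM (counts scaled to library size by TMM within each tissue) in muscle pulldowns, against 343, 594 and 679 CPM in muscle inputs, a log2 fold change of -3.41 with SE 0.32. In skin the same gene had 75.4, 58.5 and 64.1 CPM in pulldowns and 201, 181 and 151 CPM in inputs (-1.43, SE 0.21). The groups did not overlap in either tissue.

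The complex I subunit with the lowest ratio in muscle was ndufa9b, with 1.61, 1.16 and 1.25 CPM in pulldowns, against 19.0, 38.6 and 34.8 CPM in inputs (-4.51, SE 0.34). Its paralog NDUFA9, an accessory subunit, had 33.9, 37.1 and 32.4 CPM in muscle pulldowns and 343, 657 and 616 CPM in muscle inputs (-3.96, SE 0.33). NDUFA6 stood at the other end of the complex in muscle, with 142, 224 and 254 CPM in pulldowns and 434, 780 and 997 CPM in inputs (-1.83, SE 0.37). Even this least depleted subunit kept its 3 muscle pulldowns below its inputs. In skin the lowest value was that of NDUFB11 at -2.36 (SE 0.26), and NDUFB7 at -0.95 (SE 0.30) was the highest among subunits with a mean of at least 100 counts. Whole fish ran from -4.46 (SE 0.43) for NDUFB6 to -0.48 (SE 0.23) for NDUFB10.

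NDUFB4 was the 1 enriched member in skin, on very few counts. It had 1.89, 0.83 and 2.77 CPM in skin pulldowns and 0.30, 0.415 and 0.468 CPM in skin inputs, a total of 69 counts against 16 (log2 fold change 2.16, SE 0.57, adjusted p = 0.00727 by edgeR with Benjamini-Hochberg adjustment). The gene left the table when at least 10 counts were required in every library, and it was not called in a joint fit of all tissues. In muscle it had 20 counts in all pulldowns and 11 in all inputs and was not tested. NDUFS1, which encodes the largest core subunit of complex I, was listed at 0 in all 18 libraries.

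The NDUFA4 family is named for complex I, although mammalian NDUFA4 was later found in complex IV. NDUFA4 had 317, 387 and 381 CPM in muscle pulldowns, against 3036, 6657 and 6115 CPM in muscle inputs (-3.86, SE 0.39). Its skin values were 448, 326 and 338 CPM in pulldowns and 1643, 1255 and 1023 CPM in inputs (-1.82, SE 0.28). Whole fish pulldowns had 121, 160 and 200 CPM, against 1234, 1121 and 1426 CPM in whole fish inputs (-2.97, SE 0.29). The ratio was thus lower than the complex I median in each tissue. NDUFA4L2, which in mice marks pericytes and is induced by low oxygen, was scarce, with 63 counts in all muscle pulldowns and 183 in all muscle inputs, and was depleted in muscle (-2.69, SE 0.68, adjusted p = 0.00769 by edgeR).

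Assembly factors of complex I help to build the enzyme and are not part of it. In muscle 7 of 8 were depleted (median -2.31), in skin 3 of 8 (-1.14) and in whole fish 2 of 8 (-2.42). NDUFAF1 had 11.5, 11.4 and 14.6 CPM in muscle pulldowns and 49.4, 95.2 and 86.9 CPM in muscle inputs (-2.62, SE 0.30). NDUFAF4 passed the fold minimum in neither muscle (-1.02, SE 0.32) nor skin (-0.96, SE 0.27), although its pulldowns lay below its inputs in both. In whole fish NDUFAF4 was at -3.70 and not called, but it was depleted without whole fish pulldown replicate 1 (-6.85) or 3 (-3.25). Whole fish pulldowns of these factors spread widely, as for NDUFAF1, with 0.335, 34.1 and 6.09 CPM in pulldowns and 15.2, 15.0 and 14.3 CPM in inputs (-0.14, SE 1.23). NDUFAF7 was depleted there on 0 counts in every pulldown, against 0.652, 0.727 and 0.792 CPM in inputs.

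Complex II, succinate dehydrogenase, is also an enzyme of the tricarboxylic acid (TCA) cycle and is the only complex of the chain with no subunit encoded in mitochondrial DNA. In muscle 4 of 5 subunits were depleted (median -2.21), in skin 4 of 5 (-1.42) and in whole fish 2 of 5 (-1.15). The whole fish calls were SDHA (-1.37) and SDHD (ENSDARG00000030139, -3.77). That of SDHA was lost without whole fish input replicate 1 (-1.62), 2 (-1.32) or 3 (-1.42). That of SDHD was lost without whole fish input replicate 2 (-3.75) or 3 (-3.81). SDHA, the flavoprotein that oxidizes succinate, had 50.2, 64.5 and 57.7 CPM in muscle pulldowns, against 172, 299 and 310 CPM in muscle inputs (-2.18, SE 0.30). In skin it had 63.9, 62.8 and 75.7 CPM in pulldowns and 118, 129 and 140 CPM in inputs, and at -0.93 (SE 0.20) it stayed short of the fold minimum. SDHC, a membrane anchor, had the lowest muscle value of the complex, with 40.6, 43.9 and 43.7 CPM in pulldowns and 204, 420 and 371 CPM in inputs (-2.96, SE 0.32). The 4 assembly factors of complex II were all depleted in muscle (median -2.09) and in skin (-1.51), and none was called in whole fish (-0.37). There SDHAF4 had 0, 26.9 and 0 CPM in pulldowns, against 16.5, 13.6 and 16.6 CPM in inputs, so that a single library set its ratio. SDHD (ENSDARG00000055712), the subunit not called in muscle, was at -1.43 there and at -1.26 in skin, where it was called. The skin call was lost without skin pulldown replicate 1 (-1.09) or 3 (-1.23) or skin input replicate 1 (-1.32) or 3 (-1.32). This gene was read thinly. On a scale shared by the organs, its mean CPM was 1.11 in muscle pulldowns and 3.15 in muscle inputs, and 0.36 in skin pulldowns and 0.89 in skin inputs.

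Complex III passes electrons from ubiquinol to cytochrome c. Its 8 members were all depleted in muscle (median -3.17), 7 were in skin (-1.56) and 4 in whole fish (-1.71). UQCRC1, a core protein, had 39.3, 34.5 and 37.9 CPM in muscle pulldowns, against 407, 785 and 803 CPM in muscle inputs (-4.16, SE 0.35). In skin its values were 58.4, 57.0 and 55.5 CPM in pulldowns and 204, 196 and 197 CPM in inputs (-1.80, SE 0.19). The pulldowns of UQCRC1 varied little within each of these tissues. UQCRFS1, the Rieske iron-sulfur protein, had a log2 fold change of -3.41 (SE 0.37) in muscle, -1.67 (SE 0.30) in skin and -0.85 (SE 0.52) in whole fish, where it was not called. UQCRB was read thinly, with 1.54, 5.28 and 2.08 CPM in skin pulldowns and 3.80, 3.04 and 2.61 CPM in skin inputs, which overlapped (-0.07, SE 0.46).

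ATP synthase subunits were depleted as a group. All 18 were depleted in muscle (median -3.04) and in skin (-1.62), and 13 of 18 in whole fish (-2.13). ATP5F1B, the catalytic beta subunit, had 394, 436 and 476 CPM in muscle pulldowns, against 5466, 8596 and 10974 CPM in muscle inputs (-4.26, SE 0.39). In skin it had 366, 393 and 382 CPM in pulldowns and 1906, 1895 and 1302 CPM in inputs (-2.16, SE 0.27). Whole fish pulldowns had 186, 139 and 136 CPM, against 762, 876 and 831 CPM in whole fish inputs (-2.42, SE 0.25). No pulldown reached an input in any of the tissues. On a scale shared by the organs, ATP5F1B was higher in muscle than in skin by 3.39 (SE 0.45) in inputs and by 1.1 (SE 0.27, adjusted p = 0.00559 by edgeR, short of the fold minimum) in pulldowns. The c-ring genes, whose products turn with the proton flow, included the lowest muscle value of this group, atp5mc1 at -4.60 (SE 0.43), with 70.7, 98.0 and 103 CPM in pulldowns and 1160, 2511 and 2902 CPM in inputs. At the other end stood atp5mea, a small membrane subunit, at -1.81 (SE 0.30) in muscle, and ATP5PB, a stalk subunit, at -1.21 (SE 0.23) in skin. ATP5PB lost its skin call without skin pulldown replicate 2 (-1.17) or skin input replicate 2 (-1.16).

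Of the inhibitors of the ATP synthase, 1 was depleted in every tissue and 1 in none. ATP5IF1 proteins block the enzyme from running backwards and hydrolysing ATP, and zebrafish have a pair of genes for them. The first, atp5if1a, had 292, 566 and 523 CPM in muscle pulldowns and 425, 800 and 794 CPM in muscle inputs, which overlapped (-0.55, SE 0.35). In skin it had 397, 170 and 247 CPM in pulldowns, against 288, 178 and 211 CPM in inputs (0.26, SE 0.32), and in whole fish 389, 435 and 690 CPM in pulldowns, against 248, 366 and 365 CPM in inputs (0.63, SE 0.32). It was called in no tissue. The second, atp5if1b, was depleted in all 3, at -2.56 (SE 0.38) in muscle, -1.64 (SE 0.27) in skin and -2.21 (SE 0.46) in whole fish.

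Complex IV, cytochrome c oxidase, had the most subunits that were not depleted in muscle. Of 20 tested members 14 were depleted in muscle (median -2.69), 16 in skin (-1.63) and 11 in whole fish (-1.95). The 6 not depleted in muscle were COX5B (ENSDARG00000015978), cox6a1 (ENSDARG00000022438), cox6b1, cox8a, COX4I2 and COX7A2 (ENSDARG00000110700), each of which has a paralog for the same subunit that was depleted there. These subunits surround the catalytic core, which is encoded in mitochondrial DNA, and are known to tune its activity. In whole fish all 20 tested members had a log2 fold change below 0, from -2.99 to -0.07. There cox6a1 (ENSDARG00000022438) was at -2.55, cox8a at -1.63 and cox6b1 at -1.07, and these genes were not called.

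The split was widest for the cox5b set, which codes for a subunit facing the matrix. COX5B (ENSDARG00000015978) had 73.0, 93.9 and 105 CPM in muscle pulldowns, against 43.3, 42.8 and 52.7 CPM in muscle inputs. Every pulldown lay above every input (log2 fold change 0.97, SE 0.24, adjusted p = 0.00554 for enrichment by edgeR), a difference short of the fold minimum. COX5B (ENSDARG00000068738) had 72.7, 97.6 and 68.3 CPM in muscle pulldowns, against 1052, 2119 and 2125 CPM in muscle inputs (-4.47, SE 0.39). Pulldowns thus lay above inputs for the first gene and below them for the second. In skin the first had 185, 108 and 157 CPM in pulldowns and 431, 272 and 496 CPM in inputs (-1.42, SE 0.29), and the second had 159, 73.6 and 73.5 CPM in pulldowns and 466, 290 and 227 CPM in inputs (-1.68, SE 0.36).

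For cox6a, a subunit known in mammals as a liver form and a heart and muscle form, a like split was seen. cox6a1 (ENSDARG00000022438) had 67.7, 84.4 and 117 CPM in muscle pulldowns and 44.4, 42.9 and 61.0 CPM in muscle inputs (0.86, SE 0.27, adjusted p = 0.0212 for enrichment by edgeR, short of the fold minimum). COX6A1 (ENSDARG00000054588) had 256, 453 and 308 CPM in muscle pulldowns, against 2529, 6015 and 5735 CPM in muscle inputs (-3.81, SE 0.44). In skin cox6a1 was depleted, with 147, 97.8 and 137 CPM in pulldowns and 447, 294 and 623 CPM in inputs (-1.84, SE 0.31). COX6A1 was also depleted in skin (-1.49, SE 0.37), a call lost without skin input replicate 1 (-1.17).

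The cox6b and cox8 pairs were also split in muscle. cox6b1 had 21.3, 50.4 and 44.1 CPM in muscle pulldowns and 13.7, 29.0 and 39.1 CPM in muscle inputs, which overlapped (0.50, SE 0.41), whereas cox6b2 had 144, 181 and 222 CPM in pulldowns, against 1376, 2996 and 3227 CPM in inputs (-3.80, SE 0.41). In mammals COX6B1 is widespread and COX6B2 is known from testis. cox8a had 9.37, 14.1 and 17.6 CPM in muscle pulldowns and 7.60, 11.4 and 16.8 CPM in muscle inputs (0.20, SE 0.33), and cox8b had 141, 236 and 228 CPM in pulldowns, against 623, 1300 and 1359 CPM in inputs (-2.44, SE 0.38). Mouse Cox8b is the heart and muscle form. In skin it was cox8a that had the lower ratio, with 15.3, 19.5 and 18.1 CPM in pulldowns and 66.3, 56.0 and 95.7 CPM in inputs (-2.04, SE 0.24).

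COX4I2, in mammals an isoform of lung and of low oxygen, had 14.8, 25.4 and 14.6 CPM in muscle pulldowns and 16.6, 18.6 and 14.7 CPM in muscle inputs, which overlapped (0.14, SE 0.27). The main isoform COX4I1 had 265, 362 and 322 CPM in muscle pulldowns, against 1164, 2180 and 2553 CPM in muscle inputs (-2.64, SE 0.36). In skin both were lower in the pulldown, at -0.93 (SE 0.23) for COX4I2, short of the fold minimum, and -1.21 (SE 0.26) for COX4I1. The COX4I1 call was lost without skin pulldown replicate 2 (-1.13), skin pulldown replicate 3 (-1.18) or skin input replicate 1 (-1.11). Among cox7a genes, cox7a1, in mammals the heart and muscle form, had 52.0, 65.3 and 58.8 CPM in muscle pulldowns, against 454, 996 and 983 CPM in muscle inputs (-3.79, SE 0.37). COX7A2 (ENSDARG00000053217) was depleted less, at -2.01 (SE 0.35), and COX7A2 (ENSDARG00000110700) was at -0.10 (SE 0.24) with 8.82, 11.7 and 13.6 CPM in pulldowns and 10.8, 12.5 and 13.3 CPM in inputs.

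**Figure D3:**
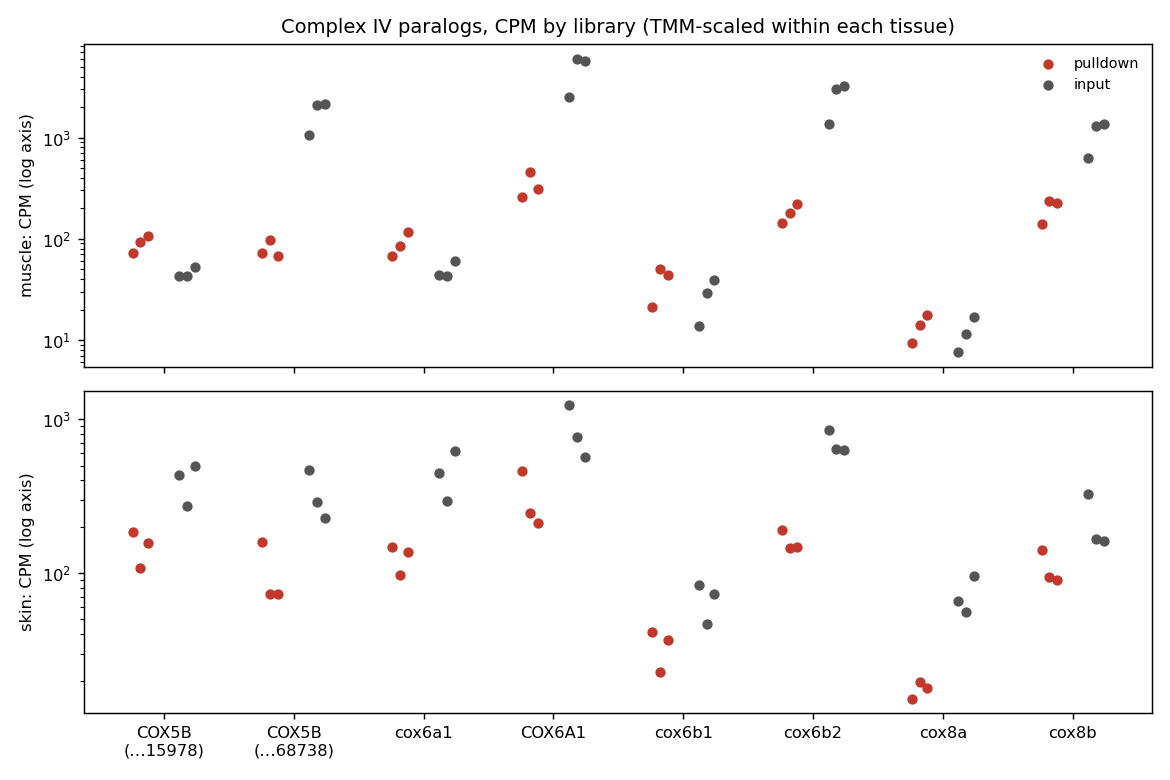
CPM of 4 pairs of complex IV paralogs (log axis) in each pulldown (red) and input (grey) library of muscle (top) and skin (bottom). In muscle the first gene of each pair has pulldowns above or overlapping its inputs, while the second has pulldowns far below; in skin every gene has its pulldowns below its inputs.

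Shares within a paralog set were computed per library from raw counts, since they do not depend on how libraries are scaled. With 3 libraries against 3, the two-sided exact permutation test cannot go under p = 0.10, which every separated share below reached, and over the family of 108 shares the Benjamini-Hochberg value was then 0.220. COX5B (ENSDARG00000015978) took 50.1%, 49.0% and 60.6% of the cox5b counts of muscle pulldowns, against 3.95%, 1.98% and 2.42% of muscle inputs. cox6a1 (ENSDARG00000022438) took 20.9%, 15.7% and 27.4% of the cox6a counts of muscle pulldowns, against 1.72%, 0.708% and 1.05% of muscle inputs. For cox6b1 the shares were 12.9%, 21.8% and 16.6% in muscle pulldowns and 0.986%, 0.959% and 1.2% in muscle inputs. In each of these sets the muscle input was nearly all 1 paralog and the pulldown was a mixture.

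The smaller shares of cox8a, COX4I2 and COX7A2 (ENSDARG00000110700) were also higher in the muscle pulldown. cox8a held 6.34% ± 0.76 of its set in muscle pulldowns and 1.1% ± 0.20 in muscle inputs, COX4I2 held 4.85% ± 1.19 and 0.83% ± 0.42, and COX7A2 (ENSDARG00000110700) held 10.2% ± 0.74 and 1.36% ± 0.48 (SD, n = 3 each). cox7a1 held 55.2%, 59.1% and 46.4% in muscle pulldowns, against 80.1%, 85.5% and 80.2% in muscle inputs. No pulldown share overlapped an input share in these 4 comparisons (exact p = 0.10 each). In complex I and the NDUFA4 family, smaller shares went the other way in muscle. ndufa9b held 3.76% ± 0.76 in pulldowns and 5.38% ± 0.16 in inputs. ndufa4b, on few counts, held 0.092% ± 0.039 and 0.212% ± 0.054 (SD, n = 3 each), and neither gene overlapped.

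In skin the pulldown and input shares of COX5B (ENSDARG00000015978), cox6a1, cox7a1 and cox8a overlapped. Within same-numbered pairs, cox8a was lower in the pulldown in 3 of 3 and cox7a1 higher in 3 of 3, and for 3 pairs the exact sign-flip test, added after seeing the data, cannot go under p = 0.25. COX5B (ENSDARG00000015978) held 53.7%, 59.4% and 68.0% of its set in skin pulldowns and 48.0%, 48.3% and 68.5% in skin inputs (exact p = 0.60). For cox6a1 the skin values were 24.2%, 28.6% and 39.5% in pulldowns and 26.6%, 27.6% and 52.2% in inputs (exact p = 0.70). Replicate 3 of skin input had the highest share for both genes. cox6b1 was separated, with 17.9%, 13.6% and 19.9% in skin pulldowns and 8.96%, 6.84% and 10.3% in skin inputs. Across organs, the pulldowns of muscle and skin overlapped for COX5B (ENSDARG00000015978), cox6a1 and cox6b1, while every muscle input lay below every skin input for the same 3 genes.

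In the whole fish COX5B (ENSDARG00000015978) held 68.8% ± 4.07 in pulldowns and 26.7% ± 4.40 in inputs, and cox6b1 held 89.2%, 46.7% and 70.1% in pulldowns, against 28%, 39.4% and 26.6% in inputs. The whole fish shares of cox6a1 overlapped, at 7.04%, 24.5% and 6.71% in pulldowns and 14.5%, 12.6% and 13.6% in inputs (exact p = 1). The pulldown of replicate 2 stood apart there.

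In the inhibitor pair, pulldown and input shares were separated in every tissue. atp5if1a took 66.7%, 72.2% and 70.3% of the counts of the pair in muscle pulldowns, against 40.4%, 38.4% and 34.0% in muscle inputs. Its shares were 61.0%, 52.4% and 56.8% in skin pulldowns and 28.7%, 26.6% and 24.7% in skin inputs, and 90.5%, 78.3% and 93.9% in whole fish pulldowns and 44.6%, 54.3% and 52.2% in whole fish inputs. COX5A also took a larger share of the counts it shares with its paralog cox5aa, at 33.2% ± 5.54 and 23.7% ± 1.15 in muscle, 35.2% ± 4.91 and 28.6% ± 0.56 in skin, and 44.1% ± 15.6 and 25.3% ± 0.66 in whole fish (pulldown and input, SD, n = 3 each). Neither pair overlapped between pulldown and input in any tissue (exact p = 0.10 each). Within the c-ring set ATP5MC3 held 20.1% ± 2.70 in muscle pulldowns and 7.05% ± 0.81 in muscle inputs, and 18.3% ± 2.24 in skin pulldowns and 12.2% ± 2.53 in skin inputs.

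**Figure D4:**
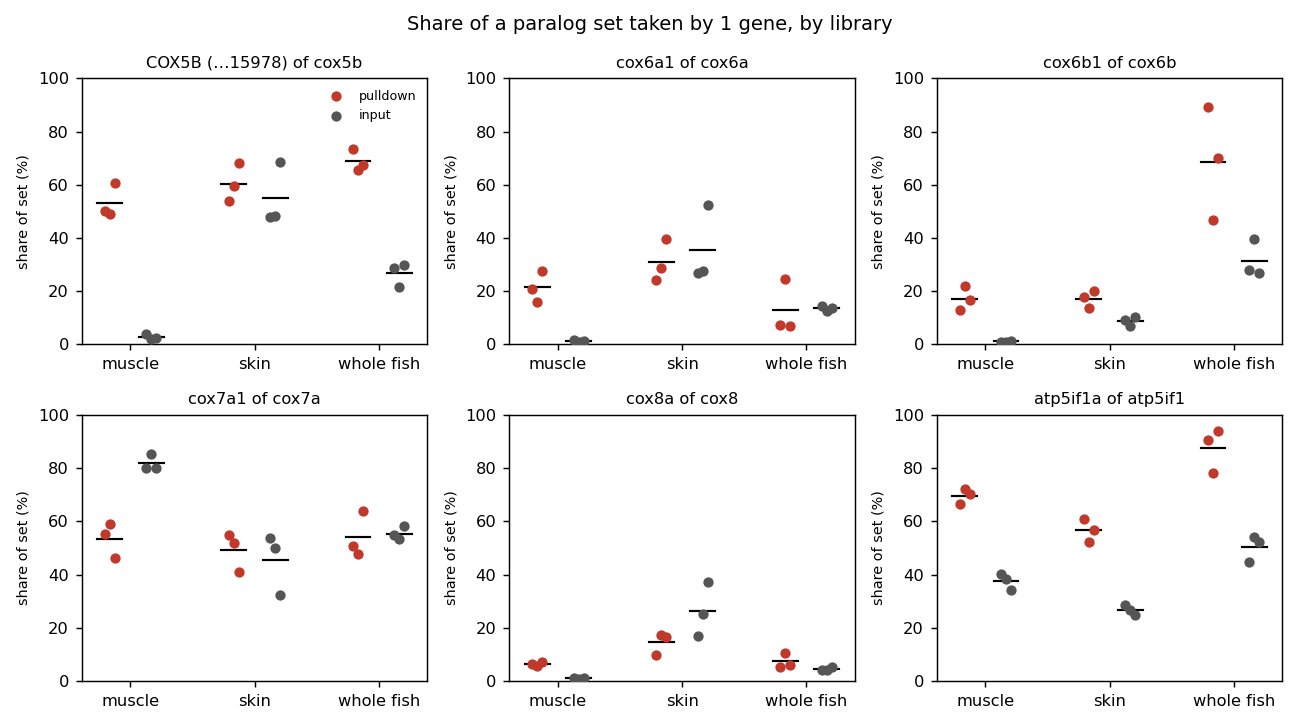
Share of the counts of a paralog set taken by 1 gene (vertical axis, percent) in each pulldown (red) and input (grey) library of muscle, skin and whole fish; bars are means of 3 libraries. COX5B (ENSDARG00000015978) takes 49.0% to 60.6% of its set in muscle pulldowns and 1.98% to 3.95% in muscle inputs, and atp5if1a is higher in the pulldown in all 3 tissues.

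Markers of other cells were counted in the same libraries. Of 13 tested muscle fibre genes, 12 were depleted in muscle and 9 in skin, where 1 was enriched, with medians of -4.10 and -2.48. Their summed level was 35047 to 47375 CPM in muscle pulldowns and 396848 to 615090 CPM in muscle inputs. In skin the summed level was 9289 to 15395 CPM in pulldowns and 25278 to 92197 CPM in inputs. Of 10 tested mural cell genes in muscle, 3 were enriched and 3 depleted, with a summed level of 3301 to 5052 CPM in pulldowns and 547 to 968 CPM in inputs. Epidermal genes were depleted for 7 of 9 in skin (median -2.16), with a summed level of 14383 to 23275 CPM in pulldowns and 72044 to 106909 CPM in inputs. In muscle 5 of 9 were depleted and 1 enriched, while their summed level was 3020 to 6767 CPM in pulldowns and 1103 to 1409 CPM in inputs. Leukocyte genes were depleted for 7 of 8 in skin (median -2.28) and 3 of 7 in muscle (-1.08). Erythrocyte genes were depleted for 3 of 6 in skin (-1.33) and 5 of 6 in muscle (-3.04), where 1 was enriched. Endothelial genes were enriched for 13 of 14 in muscle and 12 of 14 in skin. The part of these cells in the ratios and shares of respiratory chain genes was not tested.

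The difference between organs was tested directly, as pulldown over input in muscle minus pulldown over input in skin. Of 105 tested members 56 were lower in muscle and 4 higher (edgeR interaction test, two-sided, adjusted p under 0.05), where 11.4% of 18669 tested genes were lower and 12.4% higher. The median difference was -1.36 over members and -0.24 over all genes. Scaled by library size alone, 18 were lower and 6 higher, with the median of all genes at 0.68. A joint fit of all 3 tissues gave 17 lower and 1 higher (median -1.34, beside -0.22 over all genes). With the lysate as a replicate block, 84 were lower and 6 higher (median -1.29, beside -0.23). Without both libraries of skin replicate 2, 35 were lower and 3 higher (median -1.34, beside -0.21). The share of all genes called was not counted for the alternative fits, so their member counts have no such background. The count of lower members was 29, 27, 36, 33 and 30 without muscle input replicate 2, muscle input replicate 3, skin pulldown replicate 1, skin input replicate 2 and skin input replicate 3.

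By complex, 22 of 37 complex I subunits, 7 of 8 complex III subunits, 10 of 18 ATP synthase subunits, 3 of 5 complex II subunits and 8 of 20 complex IV subunits were lower in muscle. All 4 higher members belonged to complex IV. COX5B (ENSDARG00000068738) had the largest difference downward, -2.83 (SE 0.55, adjusted p = 0.00218), followed by ndufa4b at -2.78 (SE 0.78, adjusted p = 0.0183), ndufa9b at -2.73 (SE 0.52, adjusted p = 0.00194) and UQCRB at -2.49 (SE 0.70, adjusted p = 0.0182). The call of ndufa4b was lost without muscle input replicate 3 (-2.30) or skin pulldown replicate 1 (-2.46). That of UQCRB was lost without muscle input replicate 2 (-2.16) or 3 (-2.06), skin pulldown replicate 2 (-1.78) or skin input replicate 3 (-2.25). In the joint fit ndufa4b, ndufa9b and UQCRB were not called. UQCRC1 differed by -2.39 (SE 0.37, adjusted p = 0.000481) and COX6A1 (ENSDARG00000054588) by -2.36 (SE 0.60, adjusted p = 0.0111).

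In the other direction, cox6a1 (ENSDARG00000022438) differed by 2.65 (SE 0.44, adjusted p = 0.000825), COX5B (ENSDARG00000015978) by 2.34 (SE 0.40, adjusted p = 0.000974) and cox8a by 2.20 (SE 0.43, adjusted p = 0.00236). These 3 kept their call with each single library left out, but in the joint fit of all tissues only COX5B (ENSDARG00000015978) was called (2.36, adjusted p = 0.0121), and cox6a1 (2.67, adjusted p = 0.0979) and cox8a (2.23, adjusted p = 0.0814) were not. COX4I2 differed by 1.02 (SE 0.34, adjusted p = 0.0434) and lost its call without muscle pulldown replicate 2 (0.74), muscle input replicate 3 (1.07), skin input replicate 2 (1.01), or skin pulldown replicate 1 (1.11), 2 (1.08) or 3 (0.96). cox6b1 differed by 1.47 (SE 0.55, adjusted p = 0.0635), and it was called with the lysate as a replicate block (1.5) and without muscle pulldown replicate 1 (1.79), muscle input replicate 3 (1.96) or skin input replicate 2 (1.82).

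**Figure D5:**
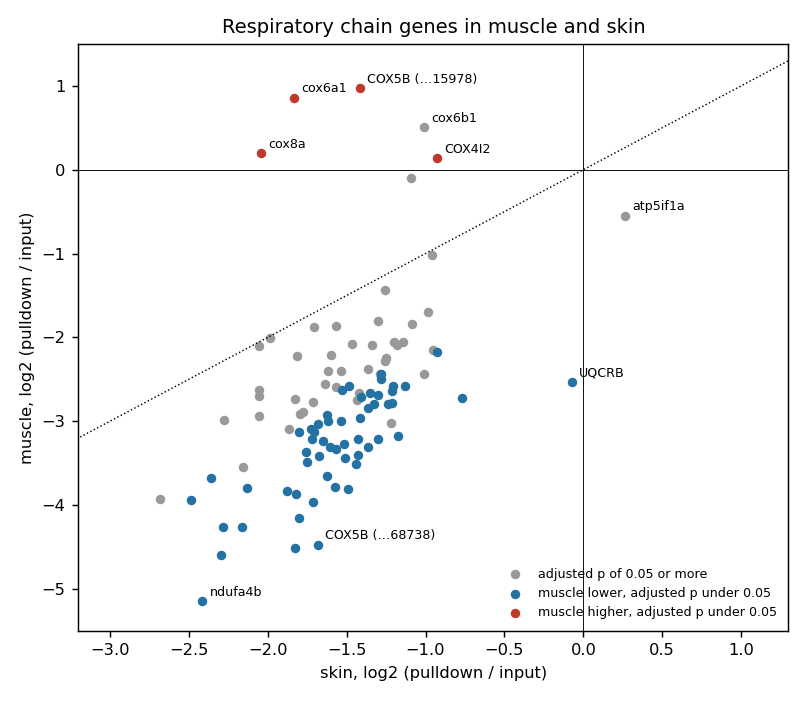
Log2 fold change of pulldown over input in muscle (vertical axis) against skin (horizontal axis) for members tested in both; blue points were lower and red points higher in muscle at an adjusted p under 0.05 for the difference, grey points were not called and the dotted line marks equal values. Most members lie below the line, and cox6a1, COX5B (ENSDARG00000015978), cox8a and COX4I2 lie above it.

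The lysates and the pulldowns were then compared across the organs separately. In muscle input over skin input, 94 of 104 members were higher and 3 lower, where 18.7% of 16060 tested genes were higher and 20.8% lower, with a median of 2.55 over members and -0.07 over all genes. Scaled by library size alone, 30 were higher and 5 lower, with the median of all genes at -1.60. The 3 lower in muscle input were cox6a1 (ENSDARG00000022438) at -2.10 (SE 0.32), COX5B (ENSDARG00000015978) at -2.01 (SE 0.29) and cox8a at -1.51 (SE 0.31), the same 3 genes that had the largest differences upward. Their paralogs COX6A1 (ENSDARG00000054588) and COX5B (ENSDARG00000068738) were higher in muscle input by 3.57 (SE 0.49) and 3.52 (SE 0.43). These comparisons share input libraries with the difference between organs, so the values are given side by side.

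In muscle pulldown over skin pulldown, 26 of 102 members were higher and 1 lower, where 13% of 16875 tested genes were higher and 23.5% lower, with a median of 1.04 beside -0.07 over all genes. Scaled by library size alone, 4 were higher and 1 lower, with the median of all genes at -0.51. The count of higher members depended on single libraries: it was 54 without muscle pulldown replicate 1, 13 without muscle pulldown replicate 3, 50 without skin pulldown replicate 1 and 13 without skin pulldown replicate 2. COX4I2 had the largest value, 1.96 (SE 0.29, adjusted p = 0.000235), and atp5if1a was higher by 1.66 (SE 0.39, adjusted p = 0.00428). COX5B (ENSDARG00000015978) and cox6a1 (ENSDARG00000022438) were at 0.18 (SE 0.28) and 0.40 (SE 0.29), and neither was called. NDUFB4 was lower by 1.88 on the log2 scale (SE 0.66, adjusted p = 0.0346), a call lost with the replicate block, in DESeq2, without a filter on low counts and in 5 of 6 fits with a library left out.

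Neighbouring pathways of the mitochondrion gave the following counts. Of the 13 respiratory chain genes encoded in mitochondrial DNA, 13 were depleted in muscle (median -4.93), 12 in skin (-3.30) and 7 in whole fish (-2.46). The 2 tested cytochrome c genes, which carry electrons between complexes III and IV, were depleted in all 3 tissues. Their medians were -3.45 in muscle, -1.82 in skin and -3.15 in whole fish. Of adenine nucleotide and phosphate carriers, 5 of 6 were depleted in muscle (-3.55). In skin 5 of 7 carriers were depleted and 1 was enriched (-1.68). Of 15 TCA cycle genes 13 were depleted in muscle (median -2.43) and 7 in skin (-1.18), where 1, the dehydrogenase gene ogdha, was enriched (1.65, SE 0.22). Mitochondrial fatty acid oxidation had 14 of 15 depleted and 1 enriched in muscle (-2.67) and 4 of 15 depleted in skin (-0.79). Assembly genes of cytochrome c oxidase had 11 of 19 depleted in muscle (-1.53) and 7 of 19 in skin (-1.10).

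Glycolysis genes were mixed, with 13 of 26 depleted and 5 enriched in muscle (-0.95) and 11 of 27 depleted and 2 enriched in skin (-0.88). Among 9 regulators of mitochondrial biogenesis, transcription factors and coactivators that control the nuclear-encoded subunits, 1 was depleted and 1 enriched in muscle (median -0.21), and 2 were enriched in skin (0.60). The medians of the respiratory chain genes thus lay below those of the biogenesis regulators and of glycolysis in both organs. In muscle and skin they lay above those of cytochrome c, of the carriers and of the mitochondrially encoded genes. In whole fish the carriers, with 4 of 8 depleted, had a median of -1.35, above the members' -1.78. Whole fish medians were -0.53 for TCA cycle genes, -1.53 for fatty acid oxidation and -1.01 for glycolysis. The tag sits on a protein of cytosolic ribosomes, so values of mitochondrially encoded genes may not be comparable with those of the members.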

How the data were processed

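The authors amplified poly(A) RNA with SMART-seq V4 into libraries that do not mark strand. Per-gene counting within lcdb-wf v1.9rc followed trimming (cutadapt) and alignment (hisat2), with GRCz11 as genome and Ensembl 99 as annotation. The counting program is not given in the sources used here, and the submitters' processing notes name DESeq2. The deposited values are raw counts per gene, not normalized. Reads shared by near-identical paralogs could be lost or split in such counts, and reads of antisense genes cannot be told apart. Of the count columns 18 were used and 18, of other organs, were not. The members and lists were chosen with earlier results of these data known.

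Each tissue was fitted separately in edgeR 4.0.16 (R 4.3.3): filterByExpr, TMM scaling, quasi-likelihood tests one-sided in each direction, Benjamini-Hochberg adjustment over all tested genes. SE is the log2 fold change divided by the root of the F statistic. Muscle and skin were compared in a fit of their 12 libraries (pulldown ratios, two-sided), and inputs and pulldowns in fits of 6. Isoform shares were compared by two-sided exact permutation tests. The fits were also run on simulated counts, whose outcome is not given here and is not used as evidence for any call. Alternatives were other scalings (library size alone, DESeq2 size factors), DESeq2 1.42.0, other filters on low counts, a joint fit, a replicate block and single libraries left out. Names in the text are members called enriched, the extremes of each complex and tissue with a mean of at least 100 counts, paralog sets and the 5 largest differences between muscle and skin. Further members (NDUFV1, NDUFA9, NDUFAF7, ATP5F1B) and the gene ogdha were picked after their values were seen, as were some of the paralog sets in the family of shares.

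Pulldown and input of the same replicate number deviated together from their group means (correlations across genes of 0.47, 0.49 and 0.37 in muscle, 0.39, 0.41 and 0.43 in skin, and 0.19, 0.17 and 0.18 in whole fish), so the numbers were taken to pair the libraries. The main fits and the permutation tests of shares did not use these pairs, which entered only the replicate blocks, the sign-flip test and the SD of medians. The labels call the replicates biological but do not say that each came from a separate fish pool. The p-values therefore measure only the spread between these libraries.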

Additional observations from a re-analysis of the deposited data

Results flagged for a closer look

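Of all 105 tested members, 56 had a lower ratio of pulldown to input in muscle than in skin and 4 a higher one. Of 18669 tested genes 11.4% were lower and 12.4% higher. The ratio differed between muscle and skin, by the interaction test in edgeR, for 30 of the named members. Of these, 5 were named because they had the largest differences in this same test. For 4 the ratio was higher in muscle: cox6a1 (ENSDARG00000022438) at 2.65, COX5B (ENSDARG00000015978) at 2.34, cox8a at 2.20 and COX4I2 at 1.02 on the log2 scale. It was lower in muscle for complex IV genes COX5B (ENSDARG00000068738) at -2.83, COX6A1 (ENSDARG00000054588) at -2.36, cox7a1 at -2.25, cox6b2 at -1.70, cox5aa at -1.65, COX4I1 at -1.46 and COX5A at -1.42. In complex I and its factors the differences were -2.73 for ndufa9b, -1.49 for NDUFAF6, -1.42 for NDUFB6, -1.36 for NDUFB11 and -1.14 for NDUFAF1. The NDUFA4 family gave -2.78 for ndufa4b and -2.09 for NDUFA4. Complex II gave -1.58 for SDHC, -1.51 for SDHAF3, -1.29 for SDHA and -1.15 for SDHB, and complex III gave -2.49 for UQCRB, -2.39 for UQCRC1, -1.99 for uqcrc2a, -1.78 for UQCRFS1 and -1.35 for UQCRH. ATP synthase subunits differed by -2.34 for atp5mc1, -2.01 for atp5mc3b and -1.61 for ATP5PB. With each of 12 libraries left out in turn, the call was lost in 11 fits for NDUFB11 and COX5A, 10 for SDHB, 9 for NDUFAF1 and UQCRH, 7 for NDUFB6 and COX4I1, 6 for COX4I2, 5 for UQCRFS1, 4 for SDHA, cox6b2 and UQCRB, 3 for cox5aa and 2 for ndufa4b and ATP5PB. In the joint fit of all tissues 10 of the 30 were called and 20 were not. Muscle input over skin input, which enters each difference, was called higher for 26, lower for cox6a1 (ENSDARG00000022438), COX5B (ENSDARG00000015978) and cox8a, and not called for COX4I2.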

How the results depend on the processing

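With no TMM factors, only library sizes, the all-gene median was 1.79 in muscle, 0.87 in skin and -1.01 in whole fish, and the members' medians were -0.97, -0.69 and -2.72, which differ from those of all genes by -2.76, -1.56 and -1.71. Under it 41 members were depleted and 7 enriched in muscle, 12 depleted in skin, 18 lower between organs, 30 higher and 5 lower in muscle input, and 4 higher in muscle pulldown. Signs turned for UQCRB in skin (0.78), for NDUFAF4 (0.80), atp5if1a (1.23) and COX7A2 (ENSDARG00000110700, 1.62) in muscle, for atp5if1a (-0.21) and ndufa4b (-0.89) in whole fish, for atp5if1a between organs (0.13), for COX4I2 in the inputs (-0.44) and for COX5B (ENSDARG00000015978, -0.27) and cox6a1 (-0.0752) in the pulldowns.

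Requiring 10 counts in every library gave medians of -1.45 in skin and -2.46 in whole fish, 0 enriched in skin, UQCRB at 0.0148 in skin and atp5if1a at -0.0392 in whole fish. With no filter the skin median was -1.59 and COX7A2 (ENSDARG00000110700) was at 0.0683 in muscle. DESeq2 gave -1.57 in skin. A joint fit gave -2.15 in whole fish with 84 depleted and 1 enriched, against 6889 and 2860 of 20645 tested genes, whose median was -0.63. It also gave 0 enriched in skin, and 1 higher and 17 lower between organs. With no fold minimum 2 were enriched in muscle, and leaving out both skin replicate 2 libraries left 35 lower between organs. No filter, DESeq2 and the replicate block each gave 0 members lower in muscle pulldown.

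The replicate block put ndufa4b at -1.03 in whole fish, against 0.51 without it. There the block also put the median of all genes at -0.96, against -0.09. With the block 1339 genes were enriched and 909 depleted in whole fish, against 1916 and 2615 without it, and 58 members were depleted, against 55. Of 184 named results the replicate block changed 6 calls: cox4i1l in skin (-1.17) and NDUFAF6 (-3.32) and SDHA (-1.39) in whole fish were lost, and cox6a1 (-3.36) and cox6b2 (-3.61) in whole fish and cox6b1 between organs (1.51) were gained. A block for each lysate changed 2 of 32 named results between organs, cox6b1 (1.5) and atp5if1a (-0.80). Apart from cox6b1 and atp5if1a, these 32 were members already called in the main fit, so calls gained by other members do not show here. Over all tested members this block called more of them lower and more higher between organs than the main fit, as given above.

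Leaving out single libraries, the members' median ran between -1.70 and -1.44 in skin and -2.18 and -1.65 in whole fish, with 0 to 1 enriched in whole fish. Depleted members ran from 95 to 96 in muscle, from 73 to 94 in skin and from 40 to 74 in whole fish. Over all tested genes, the whole fish fit with 40 had 1548 of 17723 depleted, and the fit with 74 had 4422 of 18149. The skin fit with 73 had 3257 of 17617 genes depleted, and the fit with 94 had 3317 of 18217. In the muscle fits 2785 to 3155 genes were depleted, with 15452 to 16155 tested. Counts ran from 27 to 66 lower between organs, and from 13 to 54 higher and 0 to 1 lower in muscle pulldown. Values that crossed 0 were atp5if1a (-0.15 to 0.50) and UQCRB (-0.79 to 0.18) in skin; COX7A2 (ENSDARG00000110700, -0.26 to 0.12), COX4I2 (-0.14 to 0.33) and cox8a (-0.0585 to 0.55) in muscle; COX5B (ENSDARG00000015978, -0.46 to 0.15) and ndufa4b (-1.14 to 0.95) in whole fish; cox6b1 in the inputs (-0.59 to 0.10); and COX5B (ENSDARG00000015978, -0.0143 to 0.37) in the pulldowns. Share differences, pulldown minus input in percentage points, ran from 1.61 to 12.2 for COX5B (ENSDARG00000015978), -9.18 to 3.63 for cox6a1, 7.02 to 10.2 for cox6b1, -11.7 to -1.57 for COX7A2 (ENSDARG00000053217) and 4.76 to 7.27 for ATP5MC3 in skin, and from -1.03 to -0.11 for COX4I2 in whole fish. The causes were not tested. Depth limits NDUFB4, UQCRB, ndufa4b, NDUFA4L2, SDHD (ENSDARG00000055712) and the whole fish assembly factors, which had few or 0 counts in some pulldowns.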
